A study of Macaca fascicularis with 38 samples.

Results

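The genes described here are 10 genes of reactive gliosis, the response in which astrocytes and microglia change their shape and their gene expression around injured or inflamed tissue. They are VIM, SERPINA3, CD44, C3, HSPB1, CHI3L1, OSMR, TIMP1, SPP1 and CD68, chosen by symbol from the 29958 genes of the deposited table for being known to rise in reactive astrocytes or activated microglia. All 10 were in the table and all 10 had a mean level high enough to be tested, among 15324 tested genes.

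In gliosis, microglia and invading leukocytes release cytokines such as oncostatin M and tumour necrosis factor, and also complement C1q. Astrocytes respond through receptors such as the oncostatin M receptor and through the transcription factor STAT3. Reactive astrocytes build up intermediate filaments, secrete protease inhibitors and complement C3, and raise heat shock proteins and hyaluronan receptors, while activated microglia gain lysosomes and phagocytic proteins. SPP1, which encodes osteopontin, is made by activated microglia and, in primate cortex, also by other cells, oligodendrocytes among them.

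The tissue was a biopsy of prefrontal cortical area 46 of cynomolgus macaques (Macaca fascicularis), and RNA was sequenced from a first biopsy and from a second one, which in drinkers followed voluntary drinking of ethanol. The table holds 32 libraries of 16 animals, 10 of them marked as drinkers and 6 as controls, with 5 drinkers and 3 controls in each of the cohorts 13 and 9. The labels call every sample pre_etoh or post_etoh, controls included, so drinkers and controls were told apart by the marks in the table header alone, and the second biopsies of another 6 animals were not analysed here. The groups are the second biopsies of drinkers, the first biopsies of drinkers before ethanol, and the second and first biopsies of controls. Age, amount drunk and the time between biopsies were not among the labels used here. Animals are named by X and their number, as in the table header. Controls had a first biopsy too, so what both kinds of animal share after it (time, the first operation) is part of every comparison of second with first biopsies.

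Levels are given in TPM, read numbers scaled for gene length and library depth, and changes as the difference in log2(TPM + 1) of the second minus the first biopsy of the same animal. This scale understates the change of genes near 1 TPM. Depth, recovered from the TPM steps, was 13.75 to 36.96 M reads in libraries of cohort 13 and 11.92 to 19.35 M in those of cohort 9. The 13 mitochondrially encoded genes took 36.5% ± 5.2 of the TPM in second biopsies and 41.7% ± 9.73 in first biopsies (SD, n = 16 each), and the median change of all tested genes was a log2 value of 0.17. Changes were therefore also computed after setting the median of each library equal, called median-scaled below. The markers of neurons, astrocytes, oligodendrocytes and microglia were found in every group, none at 0 in all libraries of a group. Some libraries stood apart. The first biopsies of animals X10203, X10204 and X10200 had summed blood leukocyte markers of 1438, 581.4 and 375.5 TPM, while no second biopsy exceeded 39.9 TPM. Oligodendrocyte markers reached 8897 TPM in the first biopsy of animal X10233 and 4374 TPM in that of animal X10230, and 5570 TPM in the second biopsy of animal X10207. Markers of fibroblasts and meninges reached 245.3 TPM in the second biopsy of animal X10197, with a next highest library of 126.8 TPM. Calls of the members that were lost without the leukocyte-rich or the oligodendrocyte-rich animals are given below with both values, a comparison decided on after seeing the data.

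By level, VIM, SPP1 and HSPB1 stood well above the other members. VIM averaged 151.4 TPM over the 32 libraries, SPP1 125.2 TPM and HSPB1 89.48 TPM, and the mean of HSPB1, the lowest of them, was higher than that of 90.9% of tested genes. C3 averaged 19.71 TPM, CHI3L1 14.28 TPM, TIMP1 11.88 TPM, SERPINA3 5.205 TPM and CD68 4.014 TPM. CD44 at 1.244 TPM and OSMR at 1.167 TPM lay close to the detection filter, with as few as 16 and 53 reads in a library. SERPINA3, CD68 and TIMP1 had as few as 28, 30 and 48 reads. VIM, SPP1 and HSPB1 did not differ beyond their spread between libraries, with SDs of 55.66, 76.04 and 33.36 TPM, nor did CD44 and OSMR, with SDs of 1.221 and 0.4153 TPM. SERPINA3, CD44, TIMP1 and SPP1 varied most in their change from animal to animal, with SDs of 0.959, 0.891, 0.863 and 0.835 on the log2 scale, larger than for 98.1%, 97.3%, 96.9% and 96.4% of tested genes. OSMR and CD68 varied least, with SDs of 0.317 and 0.321.

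**Figure D1:**
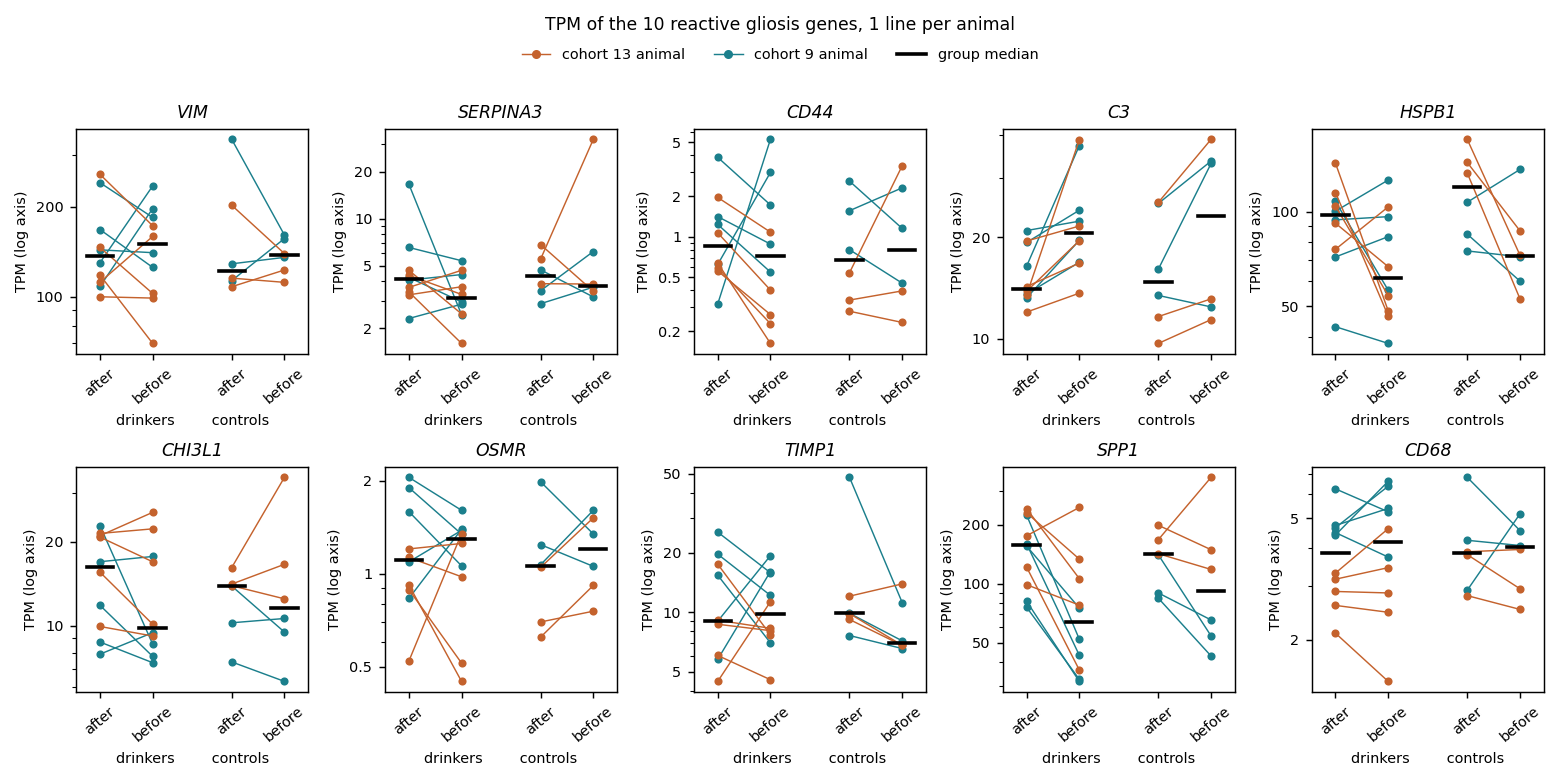
TPM of each of the 10 genes in every library on a log axis, 1 panel per gene, with second biopsies left of first biopsies in drinkers and in controls. Orange points are cohort 13 and teal points cohort 9, thin lines join the biopsies of 1 animal, and black bars are group medians. The median of SPP1 is 158.1 TPM in second and 63.61 TPM in first biopsies of drinkers, and that of C3 is 14.06 TPM in second and 20.57 TPM in first biopsies.

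The comparison of second with first biopsies over all 16 animals asked which of these genes moved on average over the course of the experiment. The fit pools drinkers and controls, so a gene that passes it is not shown to move in each kind of animal. Within drinkers only SPP1 and C3 passed, and within controls no member did, as given below. Over all 16 animals SPP1 and HSPB1 rose and C3 fell, and the other 7 members did not pass the test. That is 3 of 10 members, against 36.6% of all tested genes in that comparison by limma with Benjamini-Hochberg adjustment (adjusted p below 0.05), a share close to that background. The median change of the members was a log2 value of 0.11, below the 0.17 of all tested genes, and it was -0.11 after median scaling.

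SPP1 encodes osteopontin, a secreted phosphoprotein that binds integrins and CD44. In second biopsies it had a lowest, median and highest level of 75.85, 149.2 and 242.1 TPM, against 31.66, 70.22 and 350.5 TPM in first biopsies. The groups overlapped, but 14 of 16 animals were higher at the second biopsy, and the exceptions were animals X10233 and X10230, the ones with the oligodendrocyte-rich first biopsies. It changed by a log2 value of 0.84 ± 0.18 (SE, n = 16, 95% interval 0.46 to 1.22, adjusted p = 0.00329), a fold of 1.79, and 0.63 after median scaling (adjusted p = 0.00633). Without the 3 oligodendrocyte-rich animals it was 1.01 (adjusted p = 0.000239), and without the 3 leukocyte-rich animals 0.81 (adjusted p = 0.0234). In a fit with composition covariates (mean levels of the markers of oligodendrocytes, astrocytes and neurons) it was 0.30 and lost its call (adjusted p = 0.247), and with the leukocyte markers as a covariate it was 0.63 (adjusted p = 0.107).

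C3 is the central complement component, cleaved in every complement pathway and made by astrocytes in inflamed tissue. Its lowest, median and highest levels were 9.705, 14.06 and 25.34 TPM in second biopsies and 11.41, 20.57 and 38.92 TPM in first biopsies. The groups overlapped, and animal X10198 alone was higher at the second biopsy, with 13.45 against 12.44 TPM. The log2 change was -0.44 ± 0.10 (SE, n = 16, 95% interval -0.66 to -0.23, adjusted p = 0.00498), a fold of 0.736. After median scaling it was -0.66 (adjusted p = 0.000427) and negative in all 16 animals. The call was kept without the 3 leukocyte-rich animals, at -0.36 (adjusted p = 0.04). It was lost with composition covariates, at -0.39 (adjusted p = 0.144), with the leukocyte covariate, at -0.32 (adjusted p = 0.14), and without the animal block (adjusted p = 0.0561).

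HSPB1 is a small heat shock protein that binds unfolded proteins and stabilises the cytoskeleton. It ranged from 43.02 to 170.3 TPM in second biopsies with a median of 102.4 TPM, and from 38.06 to 136.5 TPM in first biopsies with a median of 69.37 TPM. It was higher at the second biopsy in 11 of 16 animals. The log2 change of HSPB1 was 0.48 ± 0.15 with an adjusted p of 0.0187 (SE, n = 16), but 0.27 after median scaling (adjusted p = 0.251), 0.33 by limma-voom on the recovered reads (adjusted p = 0.174) and 0.35 without the 3 oligodendrocyte-rich animals (adjusted p = 0.0846), none of which passed. With composition covariates it was 0.85 (adjusted p = 0.0184). OSMR and CD68 passed only after median scaling, where 26.8% of all genes did, OSMR at -0.21 (adjusted p = 0.0471), with 0.0014 as deposited, and CD68 at -0.24 (adjusted p = 0.035), with -0.03 as deposited.

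Cell markers moved between the same biopsies. Of 8 tested neuron markers 6 rose with a median change of 0.5, of 8 oligodendrocyte markers 3 rose with a median of 0.49, and of 7 tested leukocyte markers 5 fell with a median of -1.01. Of 9 microglial markers 1 rose and 4 fell (median -0.27), of 4 tested border macrophage markers 1 fell (-0.17), of 9 astrocyte markers 1 fell (-0.04) and of 6 endothelial markers 1 fell (-0.23). No marker of erythrocytes (2 tested, median -0.36), oligodendrocyte precursors (4, -0.01), pericytes and smooth muscle (6, -0.12) or fibroblasts and meninges (6, -0.01) passed. In these bulk samples, fewer cells of a type and less RNA per cell cannot be told apart. After median scaling 4 of 8 neuron markers and 1 of 8 oligodendrocyte markers were higher, and 6 of 7 leukocyte, 6 of 9 microglial, 3 of 4 border macrophage, 4 of 9 astrocyte, 4 of 6 endothelial, 1 of 4 precursor and 1 of 6 pericyte markers were lower, with 1 microglial marker higher. The most abundant tested markers are given as examples, and 1 gene need not move as its list does. The neutrophil and monocyte gene S100A9 averaged 2.419 TPM in second and 108.2 TPM in first biopsies of drinkers, and 2.153 against 60.36 TPM in controls, with a log2 change of -2.26 ± 0.59 (adjusted p = 0.00834). The synaptic gene SNAP25 rose by 0.54 and was higher in 11 of 16 animals. The myelin gene MBP (0.28), the astrocyte aldolase ALDOC (0.13), OLIG2 (-0.06), the tight junction gene CLDN5 (-0.17), RGS5 (0.05), DCN (0.19), MS4A7 (-0.18) and the haemoglobin gene HBB (-0.29) did not pass, and ALDOC, RGS5 and DCN turned negative after median scaling.

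**Figure D2:**
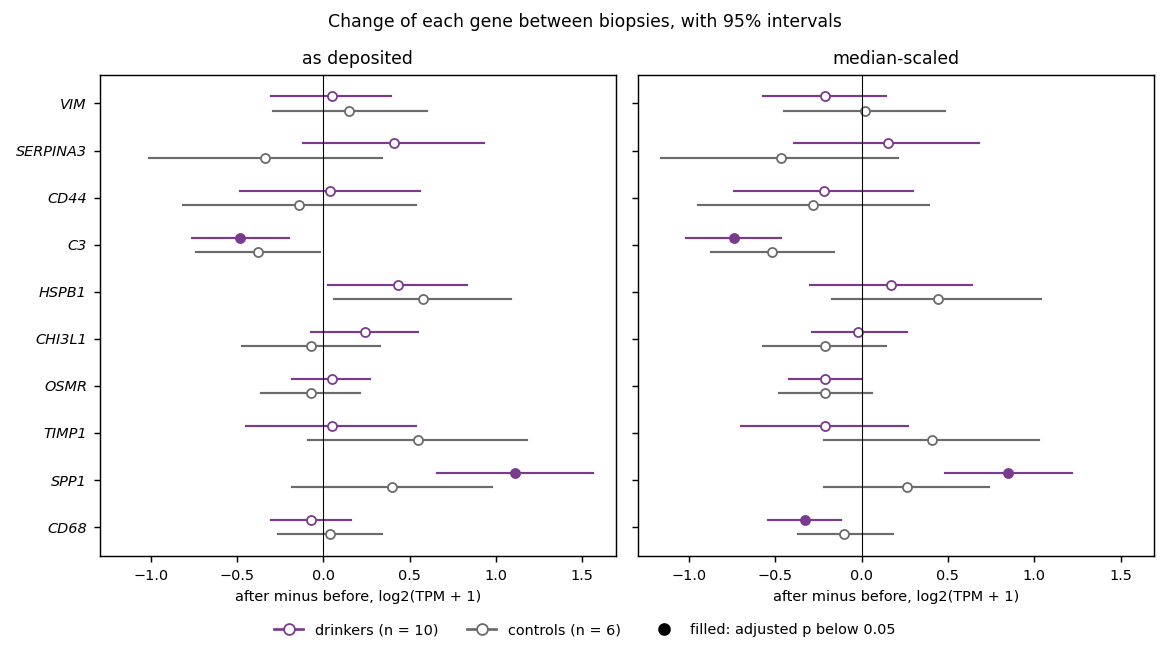
Log2 change from first to second biopsy of each gene with its 95% interval, drinkers in purple above controls in grey, as deposited on the left and median-scaled on the right. Filled points have an adjusted p below 0.05. In drinkers SPP1 (1.11) and C3 (-0.48) are filled as deposited, and no control point is filled.

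The comparison within drinkers asked what changed between the biopsy before ethanol and the one after it. SPP1 rose and C3 fell, and the other 8 members did not pass the test. That is 2 of 10 members, against 35.9% of all tested genes (32.7% higher and 3.23% lower), and the members' median change of 0.05 lay below the 0.2 of all genes. SPP1 had a lowest, median and highest level of 75.85, 158.1 and 242.1 TPM in second biopsies and 31.66, 63.61 and 245.8 TPM in first biopsies of drinkers. Animal X10230, the highest of the first biopsies at 245.8 TPM, had 176.1 TPM at the second, and the other 9 drinkers were higher at the second, with a next highest first biopsy of 133.8 TPM. The log2 change was 1.11 ± 0.22 (SE, n = 10, 95% interval 0.66 to 1.56, adjusted p = 0.00285), a fold of 2.16, and 0.85 after median scaling (adjusted p = 0.00434). The summed oligodendrocyte markers of drinkers had a median of 2248 TPM in second and 1310 TPM in first biopsies, and their part in the rise was not tested beyond the composition covariates, with which neither SPP1 (adjusted p = 0.0944) nor C3 (adjusted p = 0.0674) passed. With the leukocyte covariate neither passed either (adjusted p = 0.0589 for SPP1 and 0.171 for C3).

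C3 was lower at the second biopsy in all 10 drinkers. Its levels ran from 12.01 to 20.92 TPM in second biopsies with a median of 14.06 TPM, against 13.66 to 38.81 TPM in first biopsies with a median of 20.57 TPM. The largest falls were in animals X10226, with 13.5 against 38.81 TPM, and X10200, with 16.42 against 37.28 TPM, and the smallest in animal X10206, with 20.92 against 22.3 TPM. The log2 change was -0.48 ± 0.13 (SE, n = 10, adjusted p = 0.0119), a fold of 0.717, and the call held without any 1 animal, at -0.52 to -0.37. It did not pass without the 3 leukocyte-rich animals, 2 of them drinkers, at -0.42 (adjusted p = 0.0584), or among animals with the same RNA code at both biopsies, at -0.40 (adjusted p = 0.0546).

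The authors' deposited table gives the same signs for both genes in drinkers, a log2 fold change of 0.88 for SPP1 (FDR 0.000106) and of -0.75 for C3 (FDR 8.64e-06). Of the 10 members in the authors' deposited table, 2 were below an FDR of 0.05 in drinkers, against 29.6% of 18922 genes, and none in controls, against 1.78% of genes. The direction of these folds is not stated in the table header.

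The remaining members in drinkers are given by role. Among the astrocyte genes, VIM, an intermediate filament protein, ranged from 99.91 to 257.4 TPM in second biopsies with a median of 136.8 TPM, and from 69.68 to 235.3 TPM in first biopsies with a median of 149.9 TPM, a log2 change of 0.05 as deposited and of -0.21 median-scaled. SERPINA3, a secreted inhibitor of serine proteases, averaged 5.315 ± 4.134 TPM in second and 3.374 ± 1.167 TPM in first biopsies (SD, n = 10 each). Its change of 0.41 did not pass (adjusted p = 0.212), was 0.15 median-scaled, and was 0.19 without animal X10207, whose second biopsy held 16.65 TPM. CHI3L1, a secreted chitinase-like glycoprotein of astrocytes, averaged 15.7 ± 5.747 TPM in second and 13.49 ± 6.596 TPM in first biopsies, a change of 0.24 (adjusted p = 0.206) that was -0.02 median-scaled. HSPB1 averaged 94.79 ± 27.08 TPM in second and 72.01 ± 29.13 TPM in first biopsies, a change of 0.43 (adjusted p = 0.0851) that passed only without animal X10226, at 0.53 (adjusted p = 0.0482).

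Among receptors, secreted inhibitors and phagocyte genes, no other member passed in drinkers as deposited, while CD68 passed after median scaling. CD44, the receptor for hyaluronan and osteopontin, averaged 1.227 ± 1.053 TPM in second and 1.355 ± 1.627 TPM in first biopsies, with a log2 change of 0.04 as deposited and -0.22 median-scaled. As deposited 8 of 10 drinkers were higher at the second biopsy, and the exceptions, X10203 at -2.25 and X10200 at -1.30, are the drinkers with leukocyte-rich first biopsies. Without the 3 leukocyte-rich animals CD44 was 0.49 and did not pass (adjusted p = 0.0556). OSMR, the receptor chain for oncostatin M, averaged 1.214 ± 0.4901 TPM in second and 1.133 ± 0.3864 TPM in first biopsies, a change of 0.05 as deposited and -0.21 median-scaled. TIMP1, an inhibitor of metalloproteinases, averaged 12.1 ± 6.965 TPM in second and 11.03 ± 4.752 TPM in first biopsies, a change of 0.05 as deposited and -0.21 median-scaled. CD68, a lysosomal glycoprotein of microglia and macrophages, averaged 3.859 ± 1.262 TPM in second and 4.221 ± 1.716 TPM in first biopsies, with a change of -0.07 as deposited (adjusted p = 0.658) and -0.33 median-scaled, where it passed (adjusted p = 0.0218), as did 31.5% of all genes.

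In controls, the same comparison asked what changed without drinking, and none of the 10 members passed, against 0.3% of all tested genes (46 called, 1961 at an unadjusted p below 0.05). No member passed by limma-voom either. The signs of the 3 genes named above were the same as in drinkers. C3 averaged 16.9 ± 6.801 TPM in second and 23.75 ± 12.69 TPM in first biopsies (SD, n = 6 each), a change of -0.38 with a 95% interval of -0.74 to -0.02 (adjusted p = 0.369). HSPB1 averaged 119.0 ± 36.53 TPM in second and 80.19 ± 29.97 TPM in first biopsies, a change of 0.58 with an interval of 0.06 to 1.09 (adjusted p = 0.339).

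SPP1 in controls averaged 137.4 ± 44.47 TPM in second and 130.1 ± 115.5 TPM in first biopsies, a change of 0.40 with an interval of -0.18 to 0.98 (adjusted p = 0.542). Of the 6 controls 5 were higher at the second biopsy, and animal X10233 had 168.3 TPM there against 350.5 TPM at the first. Its first biopsy was also the highest of controls for SERPINA3, 32.15 against 5.524 TPM at its second, for CHI3L1, 34.05 against 16.16 TPM, and for CD44, 3.355 against 0.5409 TPM. Leaving this animal out gave SPP1 a change of 0.69 and turned SERPINA3 to 0.07, with -0.34 in all controls, CHI3L1 to 0.12, with -0.07, and CD44 to 0.13, with -0.14, none of them called. Animal X10197 had the highest second biopsy of controls for VIM, 337.4 against 161.0 TPM at its first, for TIMP1, 47.91 against 11.19 TPM, and for CD68, 6.822 against 4.562 TPM. TIMP1 changed by 0.55, VIM by 0.15 and CD68 by 0.04 in all controls, and without this animal TIMP1 was 0.25, VIM -0.03 and CD68 -0.05, none called with or without it. The same library held the 245.3 TPM of fibroblast and meningeal markers, against 24.43 TPM in the lowest second biopsy of controls, and the part of these markers in its levels was not tested. OSMR changed by -0.07 with 2 of 6 controls higher.

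**Figure D3:**
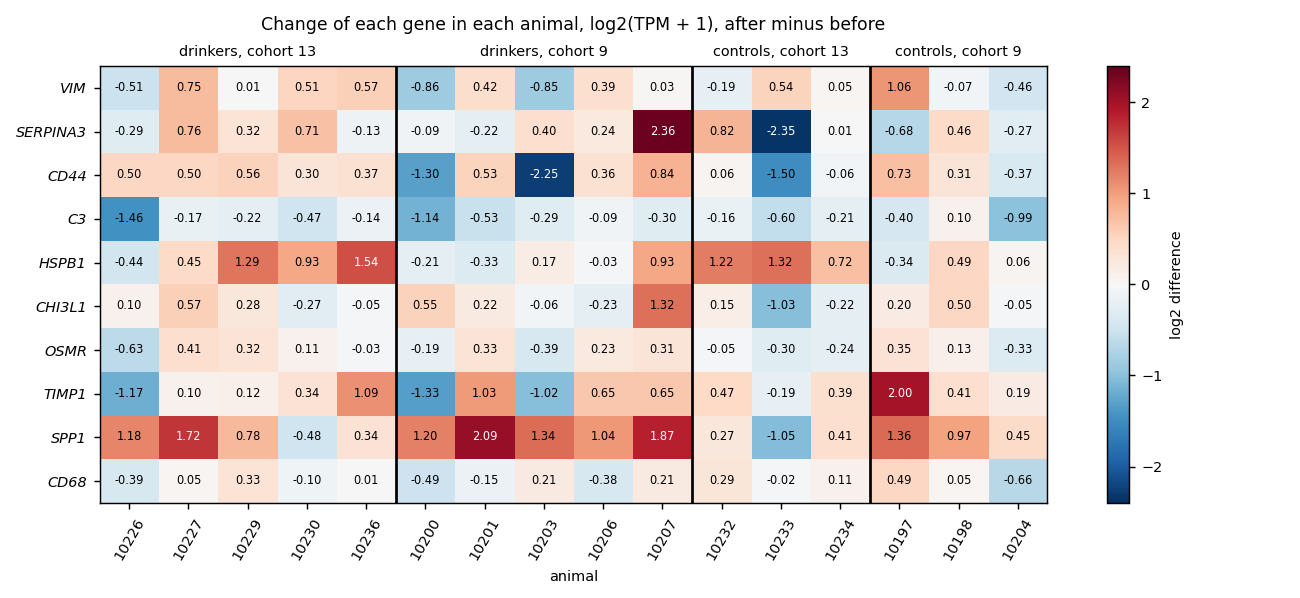
Heat map of the log2 change from first to second biopsy of each gene (rows) in each of the 16 animals (columns, drinkers left of controls and cohort 13 left of cohort 9 within each kind), with the value in each cell. SPP1 is positive in 14 animals and C3 negative in 15, while the remaining genes show both signs in both kinds of animal.

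The difference between the changes of drinkers and of controls is the comparison that bears on ethanol. None of the 10 members passed it, and 0% of all tested genes did, with 1036 at an unadjusted p below 0.05 and 0 called by limma-voom. The change of SPP1 was larger in drinkers by 0.71, with a 95% interval of -0.03 to 1.44 (adjusted p = 0.634). It was 0.42 without animal X10233 and 0.59 after median scaling. The difference for SERPINA3 was 0.74, with an interval of -0.12 to 1.6 (adjusted p = 0.634), and 0.34 without animal X10233. For C3 it was -0.10, with an interval of -0.56 to 0.35, and for HSPB1 -0.15, with an interval of -0.8 to 0.51. These intervals are wide for 10 against 6 animals, and a p that misses the threshold does not show that drinkers and controls changed alike. Drinkers and controls did not pass at either biopsy taken alone for any member. The first biopsies had 0 called genes of 15324 (218 at an unadjusted p below 0.05, 0 by limma-voom), and the second had 0 (1084 at an unadjusted p below 0.05, 0 by limma-voom).

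The cohorts differ in the RNA codes and the depth of their libraries and are shown apart. In cohort 9, SPP1 rose and C3 fell, 2 of 10 members against 35.2% of all tested genes. SPP1 had 224.6, 160.2, 155.9, 81.39 and 75.85 TPM in the second biopsies of drinkers X10201, X10207, X10206, X10203 and X10200, against 52.07, 43.07, 75.16, 31.66 and 32.43 TPM in their first. The controls X10197, X10204 and X10198 had 140.6, 89.77 and 84.37 TPM in second biopsies, against 54.1, 65.28 and 42.7 TPM in first. All 8 animals were higher, with a lowest second biopsy of 75.85 TPM and a highest first biopsy of 75.16 TPM as deposited. How many other tested genes had groups this far apart was not counted. The change was 1.29 ± 0.22 (SE, n = 8, adjusted p = 0.00164), and 1.02 after median scaling. The oligodendrocyte markers moved in the same cohort, with 5 of 8 higher and a median change of 1.03, and leukocyte markers fell with a median of -1.86, 5 of 7 lower. C3 changed by -0.46 ± 0.15 (adjusted p = 0.0267), a call that was lost without animal X10197, X10200, X10201 or X10204 (highest adjusted p 0.086), and at -0.24 without the 3 leukocyte-rich animals, all of this cohort (adjusted p = 0.339). Without those 3 animals SPP1 was 1.47 (adjusted p = 0.00699) and TIMP1, at 0.95, also passed (adjusted p = 0.0245). SPP1 did not pass with composition covariates (adjusted p = 0.417) or with the leukocyte covariate (adjusted p = 0.0705). HSPB1 did not move in cohort 9 beyond its spread, with 85.59 ± 21.98 TPM in second and 83.63 ± 34.43 TPM in first biopsies.

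In cohort 13, HSPB1 alone passed, 1 of 10 members against 1.07% of all tested genes. It averaged 122.2 ± 31.04 TPM in second and 66.53 ± 20.4 TPM in first biopsies (SD, n = 8 each), a change of 0.88 ± 0.18 (adjusted p = 0.0166). Animal X10226 alone was lower at the second biopsy, with 75.95 against 103.7 TPM, and the largest rise was in animal X10236, with 142.9 against 48.35 TPM. The libraries of X10226 differed in RNA code and in depth, with 16.17 M reads in the second and 31.11 M in the first. Animals X10227 and X10232 also had different RNA codes at their biopsies. The call was lost after median scaling, at 0.72 (adjusted p = 0.114), without the 3 oligodendrocyte-rich animals, 2 of them of this cohort, at 0.80 (adjusted p = 0.0755), and without animal X10229, X10233 or X10236 (highest adjusted p 0.0652). SPP1 averaged 172.5 ± 50.54 TPM in second and 152.3 ± 100.5 TPM in first biopsies, a change of 0.40 (adjusted p = 0.422), and C3 changed by -0.43 with 0 of 8 animals higher (adjusted p = 0.208). Oligodendrocyte markers had a median change of -0.03 here with none called.

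No member passed the difference between the changes of cohort 13 and cohort 9, where 0.0131% of all genes did (1148 at an unadjusted p below 0.05, 0 by limma-voom). The difference in change was 0.79 for HSPB1 (95% interval 0.26 to 1.31, adjusted p = 0.546) and -0.89 for SPP1 (-1.55 to -0.23, adjusted p = 0.596), neither past the threshold. For C3 the difference was 0.03.

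The first biopsies of cohort 13 differed from those of cohort 9 for 3 members, against 16.2% of all tested genes. SPP1 was higher in cohort 13, at 152.3 ± 100.5 TPM, lowest 36.23 and highest 350.5, against 49.56 ± 15.27 TPM in cohort 9, lowest 31.66 and highest 75.16. The log2 difference was 1.38 ± 0.32 (SE, adjusted p = 0.00671), kept without any 1 animal. CHI3L1 was higher by 0.80 (adjusted p = 0.0346), at 18.39 ± 8.486 against 9.657 ± 3.527 TPM, a call kept in 5 of 16 fits that left out 1 animal, with a lowest difference of 0.65 without animal X10233. CD68 was lower by a log2 difference of -0.63 (adjusted p = 0.0184), at 3.029 ± 0.9771 against 5.148 ± 1.018 TPM. Without the 3 leukocyte-rich animals of cohort 9 the differences were 1.26, 0.97 and -0.55 and none passed. Without the 3 oligodendrocyte-rich animals they were 1.0 (adjusted p = 0.0322), 0.52 (adjusted p = 0.169) and -0.78 (adjusted p = 0.0149), so the call of CHI3L1 was lost. Oligodendrocyte markers differed in the same comparison, with 6 of 8 higher in cohort 13 and a median log2 difference of 1.45. With composition covariates the differences were 0.22 for SPP1, 0.10 for CHI3L1 and -0.58 for CD68, none called. All libraries of cohort 9 carry 1 RNA code that no library of cohort 13 carries, so cohort and code cannot be told apart here. Summed leukocyte markers of first biopsies were 9.778 to 56.14 TPM in cohort 13 and 44.07 to 1438 TPM in cohort 9, and no member passed with the leukocyte covariate.

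The per-animal changes of the members were set against those of the cell markers for SPP1, C3 and HSPB1, after median scaling, a comparison chosen after seeing the data. Over 16 animals and 33 relations, 6 passed Benjamini-Hochberg adjustment by Pearson's r and 3 by both coefficients (permutation tests, 100000 resamples). The change of SPP1 followed that of oligodendrocyte markers, r = 0.83 (p = 0.00018, adjusted p = 0.00594) and rho = 0.63 (adjusted p = 0.0636). It was 0.62 without the 2 animals farthest out, 0.82 in cohort 13 and 0.75 in cohort 9. C3 followed endothelial markers, r = 0.77 (adjusted p = 0.00627) and rho = 0.74 (adjusted p = 0.0295), with 0.79 without the 2 farthest animals, 0.96 in cohort 13 and 0.65 in cohort 9.

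C3 went against neuron markers, r = -0.68 (adjusted p = 0.0279) and rho = -0.72 (adjusted p = 0.0295), with -0.59 without the 2 farthest animals, -0.65 in cohort 13 and -0.74 in cohort 9. This relation was 0.03 on values as deposited and so rests on the scaling. HSPB1 also went against neuron markers, r = -0.74 (adjusted p = 0.0155) and rho = -0.71 (adjusted p = 0.0295), with -0.62 without the 2 farthest animals, -0.71 in cohort 13, -0.56 in cohort 9 and -0.45 as deposited. SPP1 with erythrocyte markers (r = -0.70, adjusted p = 0.0227; rho = -0.64, adjusted p = 0.0636) and C3 with pericyte markers (r = 0.64, adjusted p = 0.0407; rho = 0.46, adjusted p = 0.182) passed by Pearson's r alone. The points of a relation share their libraries, so a member and a marker list carry the same error of scaling.

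**Figure D4:**
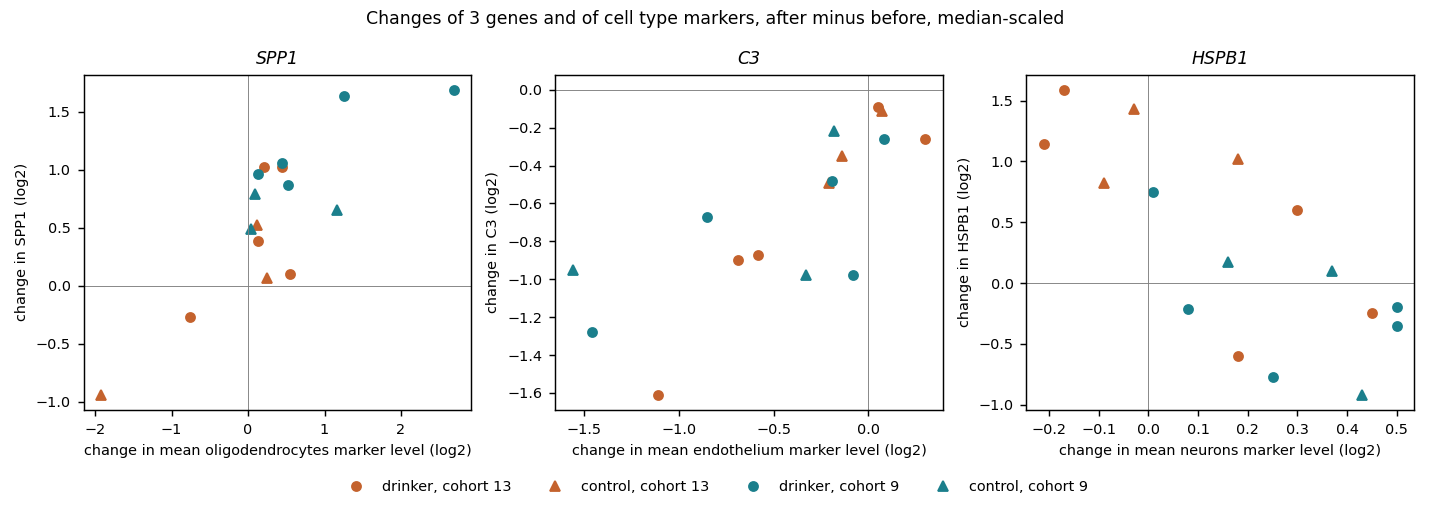
Per-animal change of SPP1 against oligodendrocyte markers, of C3 against endothelial markers and of HSPB1 against neuron markers, both axes in median-scaled log2 units, with drinkers as circles, controls as triangles, cohort 13 in orange and cohort 9 in teal. Pearson's r over the 16 animals is 0.83, 0.77 and -0.74.

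Among the members themselves, 40 of 45 pairs had a positive r over the 16 animals as deposited, 4 pairs passed adjustment by Pearson's r and 0 by Spearman's rho (permutation tests). CHI3L1 changed with SPP1, r = 0.76 and rho = 0.67 (adjusted p = 0.0139 and 0.106), with 0.56 without the 2 farthest animals, 0.90 in cohort 13 and 0.47 in cohort 9, but r = 0.57 after median scaling did not pass (adjusted p = 0.0949). VIM changed with TIMP1, r = 0.78 and rho = 0.56 (adjusted p = 0.0139 for r), with 0.62 without the 2 farthest animals, 0.52 in cohort 13 and 0.96 in cohort 9. Fibroblast and meningeal markers moved with TIMP1 in the animals of largest change, by 2.11 in X10197, -1.48 in X10200, -1.04 in X10203 and -0.92 in X10226, where TIMP1 changed by 2.00, -1.33, -1.02 and -1.17, and their part in the relation was not tested. OSMR changed with TIMP1, r = 0.67 and rho = 0.56 (adjusted p = 0.0415 for r), with 0.48 without the 2 animals farthest out in OSMR, 0.53 in cohort 13 and 0.81 in cohort 9. SERPINA3 with CHI3L1 had r = 0.78 and rho = 0.36 (adjusted p = 0.0415 for r), but 0.06 without the 2 farthest animals, so that relation rests on them. HSPB1 and SPP1, the members that rose, tended to opposite sides, r = -0.59 (adjusted p = 0.0703), with -0.67 after median scaling (adjusted p = 0.0251), -0.56 in cohort 13 and 0.05 in cohort 9.

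The gene most alike each member in its per-animal change, by Pearson's r over 16 animals after median scaling, was PARP14 for VIM (0.92), PRR5L for SERPINA3 (0.86), HNRNPF for CD44 (0.91), LOC102136964 for C3 (0.94) and HS1BP3 for HSPB1 (0.95). It was PPP1R14A for CHI3L1 (0.87), HFE for OSMR (0.89), SLC22A6 for TIMP1 (0.94), SLAIN1 for SPP1 (0.95) and CTSW for CD68 (0.90). Each is the highest value among all tested genes and carries no test.

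Other genes of the same response, in 10 lists that do not hold the members, are given for all 16 pairs, where 32.9% of tested genes rose and 3.69% fell as deposited, and 9.7% rose and 17.1% fell after median scaling. Of 6 tested pan-reactive astrocyte genes, named in mouse, 1 rose and 2 fell, with a median change of -0.09 (0 and 2 after median scaling). GFAP, the astrocyte filament protein, averaged 466.5 TPM in second and 342.1 TPM in first biopsies of drinkers, and 491.6 against 439.9 TPM in controls. It rose by 0.39 ± 0.15 (adjusted p = 0.0431, higher in 10 of 16 animals), but its 0.17 after median scaling did not pass (adjusted p = 0.412). The filament gene NES fell by 0.57 (adjusted p = 0.0013, lower in 14 animals), and STEAP4, a metalloreductase, changed by -1.06 (adjusted p = 0.0213), listed at 0 in some libraries. STEAP4 reached 47.87 TPM in first biopsies of drinkers and 18.47 TPM in those of controls. No second biopsy exceeded 0.6321 TPM in drinkers or 0.8844 TPM in controls, so it reached the detection filter of 1 TPM only through first biopsies. The filter thus favours its fall, and STEAP4 is counted among the pan-reactive genes that fell. Of 6 genes of the A1 kind 1 rose, AMIGO2, an adhesion protein (0.72, adjusted p = 0.00178, higher in 13 animals), and the median was 0.11 (1 rose and 2 fell after median scaling). The immunoproteasome gene PSMB8 (-0.39) and the granule proteoglycan gene SRGN (-0.52) passed only after median scaling, at -0.60 and -0.74. Of 5 genes of the A2 kind 0 passed (median 0.07; 2 fell after median scaling), PTGS2 (0.29), EMP1 (0.15) and CD14 (-0.24) among them, and CD14 passed after median scaling, at -0.45, while EMP1 turned to -0.06.

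Of 5 tested ligands of gliosis 4 fell (median -0.49), and 5 after median scaling. TGFB1 fell by 0.49 (adjusted p = 0.00513) and was lower in all 16 animals, averaging 8.61 TPM in second and 13.43 TPM in first biopsies of drinkers, and 8.98 against 11.77 TPM in controls. TNF fell by 0.99 (adjusted p = 0.00516), averaging 0.2976 against 2.041 TPM in drinkers and 0.3665 against 3.108 TPM in controls. Its second biopsies averaged below the detection filter of 1 TPM, with a highest of 0.644 TPM in drinkers and 1.267 TPM in controls. Its mean over all libraries reached the filter only through first biopsies. The filter thus favours a fall, and TNF is counted among the ligands that fell. The C1q chain C1QA fell by 0.27 (adjusted p = 0.0218). Of 11 receptor and signalling genes of the oncostatin M and interleukin 6 family 2 rose and 2 fell (median -0.05), whereas after median scaling 0 rose and 5 fell (median -0.26). SOCS3, a feedback inhibitor of this signalling, fell by 0.69 (adjusted p = 0.0142) and the receptor IL6R by 0.36 (adjusted p = 0.041), each lower in 12 animals, while the receptor LIFR rose by 0.52 (adjusted p = 0.0113) and was 0.31 after median scaling (adjusted p = 0.0509). Leukocyte markers fell in the same comparison, as given above, and their part in these falls was not tested.

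Of 12 tested complement genes 3 rose and 6 fell (median -0.12), and 1 and 6 after median scaling. The receptor for the C3a fragment, C3AR1, fell by 0.65 (adjusted p = 0.00067), averaging 2.653 against 4.305 TPM in drinkers and 2.234 against 5.562 TPM in controls. The protease C1S rose by 0.61 (adjusted p = 0.00494) and the C3b-cleaving protease CFI by 0.39 (adjusted p = 0.00332), with 0.39 and 0.17 after median scaling, the second not called (adjusted p = 0.0709). Of 15 genes of activated or disease-associated microglia, named in mouse, 2 rose and 4 fell (median -0.01), and 1 and 6 after median scaling (median -0.23). The adaptor TYROBP fell by 0.61 (adjusted p = 0.00168) and APOE by 0.36 (adjusted p = 0.00752), lower in 15 and 13 animals, while the growth factor IGF1 rose by 0.42 (adjusted p = 0.00164), higher in 14. Microglial markers, as given above, fell for 4 of 9.

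Of 7 osteopontin and hyaluronan genes 1 fell in either scaling (median 0.13 as deposited), the hyaluronidase HYAL1 (-0.38, adjusted p = 0.00948), while the synthase HAS3 (0.13) and the integrin ITGB1 (0.19) did not pass and turned negative after median scaling. Of 8 metalloproteinase genes and inhibitors 1 rose and 1 fell (median 0.12), and 0 and 3 after median scaling. ADAM10 rose by 0.52 (adjusted p = 0.0307, and 0.30 after median scaling, adjusted p = 0.0716). MMP9, a gelatinase stored in neutrophils, changed by -1.07 (adjusted p = 0.0179), with up to 46.74 TPM in first biopsies and no second biopsy above 0.6935 TPM in drinkers. Second biopsies averaged 0.2301 TPM in drinkers and 0.1929 TPM in controls, so MMP9 too reached the detection filter of 1 TPM only through first biopsies. Its fall is likewise favoured by the filter, and MMP9 is the 1 gene counted as fallen in this list as deposited. MMP14 (0.31) did not pass. Of 10 small heat shock proteins and partners 4 rose and 0 fell (median 0.26), and 3 and 0 after median scaling. HSPH1 rose by 0.81 (adjusted p = 0.000619), DNAJB1 by 0.61 (adjusted p = 0.000204) in all 16 animals, and HSPB8, a partner of HSPB1, by 0.50 (adjusted p = 0.000773). These 3 kept their calls after median scaling, at 0.60, 0.39 and 0.28, unlike HSPB1.

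In drinkers, where 32.7% of all tested genes rose and 3.23% fell, 2 of 5 ligands fell, 2 of 12 complement genes rose and 5 fell, and 5 of 10 heat shock genes rose. The pan-reactive list of drinkers had 0 higher and 2 lower, the A1 list 1 and 0, the A2 list 0 and 0, the receptor list 3 and 1, the microglial list 2 and 2, the osteopontin and hyaluronan list 1 and 1, and the metalloproteinase list 1 and 1. After median scaling, where 12.1% of all tested genes rose and 19.4% fell in drinkers, the counts of higher and lower genes were 0 and 4 for ligands, 1 and 6 for complement, 3 and 1 for heat shock genes, 0 and 2 for the pan-reactive list and 1 and 1 for the A1 list. They were 0 and 2 for the A2 list, 1 and 5 for receptors, 0 and 6 for the microglial list, 0 and 2 for osteopontin and hyaluronan, and 1 and 2 for metalloproteinases. Any calls of STEAP4, TNF and MMP9 among the lower genes are favoured by the detection filter, as given above. In controls 1 complement gene fell and no other list gene passed, where only 0.3% of all genes did, and drinkers minus controls had no called gene.

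**Figure D5:**
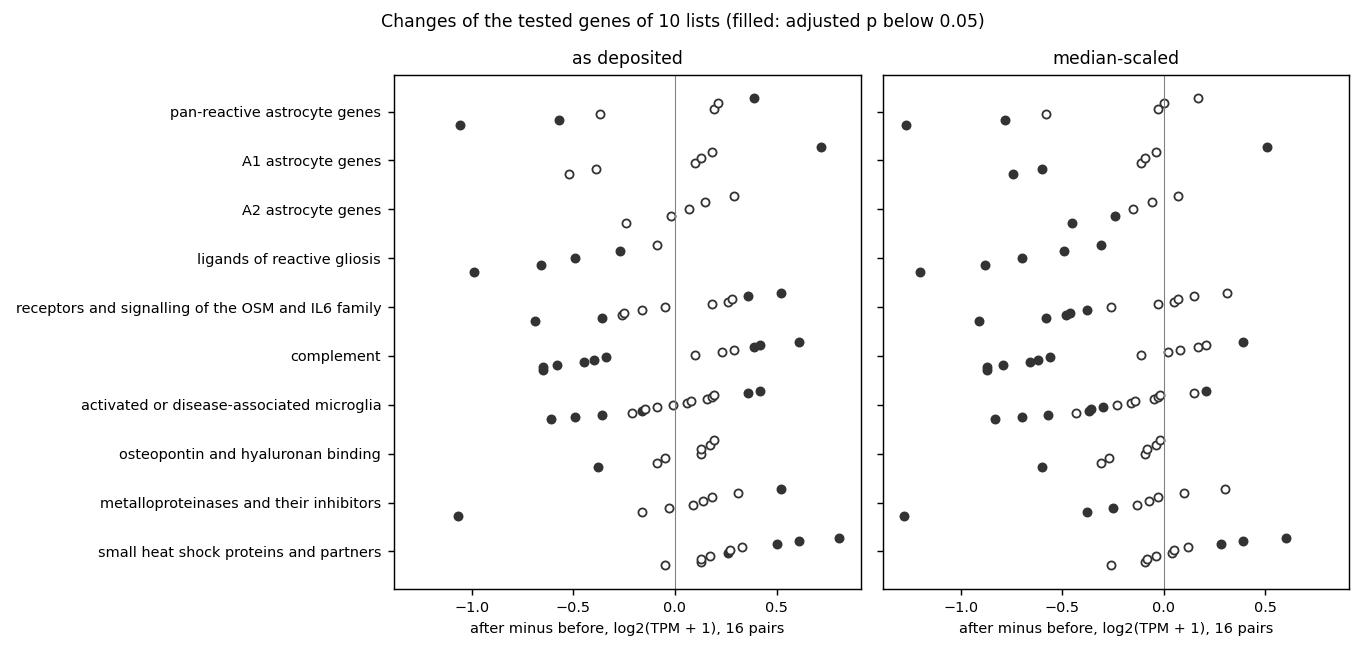
Log2 change from first to second biopsy over all 16 animals of each tested gene of the 10 lists, 1 line per list, as deposited on the left and median-scaled on the right, with filled points at an adjusted p below 0.05. As deposited, 4 of 5 ligands are filled below 0 and 4 of 10 heat shock genes above 0. The filled points below 0 include TNF, STEAP4 and MMP9, which reached the detection filter of 1 TPM only through first biopsies.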

How the data were processed

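RNA was measured in 32 biopsy libraries of 16 macaques. The libraries were unstranded, poly-A selected and single-end, per the labels' protocols, so reads of a gene and of an antisense gene cannot be told apart. STAR 2.5.2b, HTSeq 0.6.1p1 and DESeq2 are named in the submitters' processing notes. The genome build, like the annotation, is not given in the sources used here. Deposited values per library are TPM, and the deposited log2 fold changes, p-values and FDR of drinkers and controls are the authors' own, per the file headers. To learn the depth, the steps of the deposited TPM values were turned back into whole reads, which succeeded for 29413 of 29437 genes (99.9%, within 1e-06 of a whole number).

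Genes whose mean TPM reached 1 were tested on log2(TPM + 1) with limma 3.58.1 (trend) in R 4.3.3, with the animal as a block and Benjamini-Hochberg adjustment over all 15324 genes, called at an adjusted p below 0.05. The design had allowed for counts, and TPM needed this test. Biopsies pair by animal number, and the 2 libraries of an animal deviated together, with correlations of 0.07 to 0.54, median 0.33, above 0.1 in 14 of 16 animals. Scripts were tested on simulated data. Correlations and figures used Python 3.11.15, numpy 2.4.6, pandas 2.3.3, scipy 1.17.1 and matplotlib 3.10.9. Alternatives were median scaling, a pseudocount of 0.1, no filter on low values, composition or leukocyte covariates, limma-voom on recovered reads, pairs with 1 RNA code, no animal block and leaving out each animal. Leaving out the 3 animals of highest leukocyte or oligodendrocyte markers was added after seeing the data.

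The members and lists were chosen with earlier results of these data known. Named genes are the members, GFAP, the 3 genes of smallest p of each list over 16 pairs, the marker of highest mean TPM of each cell type (1 of these is not reported here) and the 1 gene most alike each member. Intervals are 95% confidence intervals of a mean change or difference, computed from these animals alone, and single animals can lie outside them. Sequences were not used here.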

Additional observations from a re-analysis of the deposited data

Results flagged for a closer look

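In 8 of the 40 sets of libraries formed by the 10 genes and the 4 groups, the highest animal stood apart from the others by Dixon's test at its 95% critical value. Chance gives about 1 in 20 sets where values are normally distributed. The test was run on TPM, not on the log2 scale of the other tests, and high values stand apart more easily on TPM. The sets also share animals, so the 8 sets cannot be set against that rate. Animal X10207 had 16.6 TPM of SERPINA3 in the second biopsies of drinkers, with a next highest of 6.56 TPM, and 3.87 TPM of CD44, with a next highest of 1.95 TPM. Animal X10230 had 246 TPM of SPP1 in the first biopsies of drinkers, with a next highest of 134 TPM. In the first biopsies of controls, animal X10233 had 351 TPM of SPP1, with a next highest of 149 TPM, 32.1 TPM of SERPINA3, with a next highest of 6.18 TPM, and 34.1 TPM of CHI3L1, with a next highest of 16.6 TPM. In the second biopsies of controls, animal X10197 had 47.9 TPM of TIMP1, with a next highest of 12.05 TPM, and 6.82 TPM of CD68, with a next highest of 4.24 TPM. The libraries of animals X10207, X10230 and X10233 named here had summed oligodendrocyte markers of 5570, 4374 and 8897 TPM, the highest of the 32 libraries, and the part of that in these levels was not tested.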

How the results depend on the processing

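Of the 10 members, 3 were called over 16 pairs and 1 with composition covariates. In drinkers 2 were called, but 0 with composition covariates, 0 with the leukocyte covariate, 1 without the leukocyte-rich animals, 1 among pairs with 1 RNA code and 1 with no replicate block, that is without the animal. In cohort 9 the 2 calls became 0 with composition covariates, 1 with no replicate block, and 1 to 2 when 1 animal was left out. In cohort 13 the 1 call became 0 with median scaling, limma-voom, no replicate block or without the oligodendrocyte-rich animals, and 0 to 1 when 1 animal was left out. In first biopsies, cohort 13 minus cohort 9, the 3 calls became 0 with composition or leukocyte covariates or without the leukocyte-rich animals, and 6 with limma-voom. The 4 pairs of members became 10 with median scaling, 2 with a pseudocount of 0.1, and 1 to 5 when 1 animal was left out. The cause of these changes was not tested. With no replicate block C3 lost its call over 16 pairs, in drinkers and in cohort 9 and HSPB1 its call in cohort 13, and no other call of a member changed. The leukocyte covariate added a call for VIM, at 0.42 over 16 pairs, and for TIMP1 in cohort 9 (adjusted p = 0.00452).

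The sign turned in the following cases, which are not all. With median scaling over 16 pairs, VIM went from 0.09 to -0.13, SERPINA3 from 0.13 to -0.09 and CHI3L1 from 0.12 to -0.09. In cohort 13 the same scaling turned TIMP1 from 0.14 to -0.01, CD44 from 0.09 to -0.07 and CD68 from 0.04 to -0.12. Fits without 1 animal over 16 pairs gave SERPINA3 -0.02 to 0.29 and CD44 -0.08 to 0.12. Over 16 pairs OSMR was -0.21 with median scaling, -0.0022 with a pseudocount of 0.1, -0.04 with composition covariates, -0.18 by limma-voom and -0.0073 without the oligodendrocyte-rich animals, and CD68 was 0.05 with the leukocyte covariate and 0.04 without the leukocyte-rich animals. In drinkers median scaling gave VIM -0.21, CD44 -0.22, CHI3L1 -0.02, OSMR -0.21 and TIMP1 -0.21. Composition covariates gave CD44 -0.13, CHI3L1 -0.09, OSMR -0.10 and TIMP1 -0.06, limma-voom gave VIM -0.16, OSMR -0.09 and TIMP1 -0.13, and the leukocyte covariate gave CD68 0.02. Without the oligodendrocyte-rich animals VIM was -0.0098, CD44 -0.09 and TIMP1 -0.07, and among pairs with 1 RNA code CD44 was -0.07. In controls CD44 was 0.13 and OSMR 0.04 with composition covariates, CD44 0.16 and OSMR 0.0045 with the leukocyte covariate, CD68 -0.10 with median scaling, -0.08 by limma-voom and -0.0068 among pairs with 1 RNA code, and without the oligodendrocyte-rich animal SERPINA3 was 0.07, CD44 0.13 and CHI3L1 0.12. For drinkers minus controls, pairs with 1 RNA code gave C3 0.02 and HSPB1 0.09. In cohort 9 HSPB1 was -0.18 with median scaling, -0.15 by limma-voom and -0.03 without the oligodendrocyte-rich animal, CD68 was 0.05 with the leukocyte covariate and 0.04 without the leukocyte-rich animals, and VIM was 0.14 with composition covariates, 0.84 with the leukocyte covariate (adjusted p = 0.0268) and 0.37 without the leukocyte-rich animals. For cohort 13 minus cohort 9, C3 was -0.32 with the leukocyte covariate and -0.18 without the leukocyte-rich animals. Leaving out 1 animal moved OSMR over -0.03 to 0.04 and CD68 over -0.06 to 0.02 in 16 pairs, VIM over -0.03 to 0.15, CD44 over -0.05 to 0.30 and TIMP1 over -0.07 to 0.20 in drinkers, VIM over -0.03 to 0.28, SERPINA3 over -0.57 to 0.07, CD44 over -0.31 to 0.13, CHI3L1 over -0.19 to 0.12 and CD68 over -0.05 to 0.18 in controls, C3 over -0.23 to 0.0057 and HSPB1 over -0.33 to 0.0024 for drinkers minus controls, HSPB1 over -0.03 to 0.15 and VIM over -0.20 to 0.07 in cohort 9, and C3 over -0.07 to 0.17 between cohorts.

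Over all genes and 16 pairs, 5042 higher and 566 lower calls became 1486 and 2623 with median scaling, 166 and 81 with composition covariates, 529 and 33 with the leukocyte covariate, 1868 and 1663 by limma-voom, 2698 and 191 with no replicate block and 2081 and 177 without the leukocyte-rich animals. Higher genes made up 89.9% of these calls as deposited, 36.2% with median scaling, 52.9% by limma-voom and 67.2% with composition covariates. CD44, SERPINA3, CD68, TIMP1 and OSMR are limited by depth, with as few as 16, 28, 30, 48 and 53 reads in a library.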
